A study of Mus musculus with 6 samples.

Results

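The genes of the mitochondrial respiratory chain were followed in primary hepatocytes of mice with CCl4-induced liver fibrosis, with and without hepatocyte FOXA2. The members were chosen by gene symbol. They are the genes whose symbol starts with Nduf, Sdha, Sdhb, Sdhc, Sdhd, Uqcr, Cox4, Cox5, Cox6, Cox7, Cox8 or Atp5, together with the protein-coding genes whose symbol starts with mt-, and pseudogenes were left out. The rule gave 110 genes of 34745 in the count tables. Of these, 85 are nuclear genes named as subunits (38 of complex I, 4 of complex II, 8 of complex III, 18 of complex IV and 17 of complex V), 12 are nuclear assembly factors (Ndufaf and Sdhaf genes) and 13 are encoded by mitochondrial DNA (mtDNA). The rule uses no measured value, but it was chosen with earlier results of these data known.

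All 6 mice were male, 12 weeks old according to the labels, and homozygous for a floxed Foxa2 allele (FOXA2f/f). The FOXA2f/f+CCl4 group (3 mice) had received the virus AAV8-TBG-Control, and the FOXA2H-KO+CCl4 group (3 mice) AAV8-TBG-Cre, in which the hepatocyte-specific TBG promoter drives Cre recombinase. Virus was injected 2 weeks before CCl4, and CCl4 (0.25 ml/kg) was given 2 times per week for 4 weeks to both groups, so that all libraries come from fibrotic livers and there is no group without CCl4. Hepatocytes were isolated on day 3 after the last injection, and each mouse gave 1 poly-A selected, paired-end RNA-seq library. In each group the labels number the mice 1, 2 and 4, and values are given in that order below. Each table gave a count of fragments per gene, and FPKM, which divides the count by gene length and by the total count of the library. CPM denotes counts per 1000000 after TMM scaling between libraries.

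The respiratory chain passes electrons from NADH (complex I) and succinate (complex II) through ubiquinone, complex III and cytochrome c to oxygen at complex IV, and complexes I, III and IV pump protons across the inner mitochondrial membrane. ATP synthase, or complex V, uses the resulting gradient to make ATP. Complexes I, III, IV and V are assembled from subunits of nuclear and mitochondrial genes, whereas all subunits of complex II are nuclear. Hepatocytes are rich in mitochondria and use this ATP for gluconeogenesis, urea synthesis and bile formation.

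The libraries held between 20983455 and 28327765 counts, and 14417 genes passed the filter on low counts and were tested. Foxa2, the deleted gene, was read first as a check of the labels. It had 19.0, 13.5 and 16.4 CPM in the FOXA2f/f libraries and 1.03, 0.761 and 1.62 CPM in the FOXA2H-KO libraries, a log2 fold change of −3.85 ± 0.31 (SE), and it was the single gene of the 14417 with an adjusted p under 0.05 in edgeR's quasi-likelihood test (0.0313). Without 1 library the log2 fold change was −4.17 to −3.63, and the adjusted p rose to 0.05 or more without each library other than FOXA2f/f replicate 2 (0.0624 to 0.499). The hepatocyte markers Alb, Apoa1, Apob, Ass1, Cps1, Cyp2e1, Hnf4a, Serpina1a, Tat and Ttr were counted in every library and summed to between 115522 and 164501 CPM. Cells other than hepatocytes also contributed RNA: 12 macrophage markers summed to 526 to 2356 CPM and 12 stellate cell markers to 1109 to 2811 CPM.

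No respiratory chain gene was called at an adjusted p under 0.05 and a fold change of at least 2, where 0.00694% of all tested genes were called. Of the 110 members, 104 passed the filter and 6 did not. None of the 104 reached an unadjusted p under 0.05 in edgeR's quasi-likelihood test, against 5.17% of all tested genes, and the smallest value was that of Ndufs8 (0.0515). The fitted values nevertheless lay mostly on the same side. The log2 fold change was below 0 in 97 of the 104 members, compared with 52.2% of all tested genes, and its median was −0.21 against −0.01 over all genes. With libraries scaled by total count alone, 75 of the 104 members were below 0 against 32.3% of all genes, whose median moved to 0.10. DESeq2, edgeR's exact test and limma on FPKM also called 0 members and gave 0 with an unadjusted p under 0.05. Many members rose and fell together from mouse to mouse (below), so that 104 members are not 104 independent observations.

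**Figure D1:**
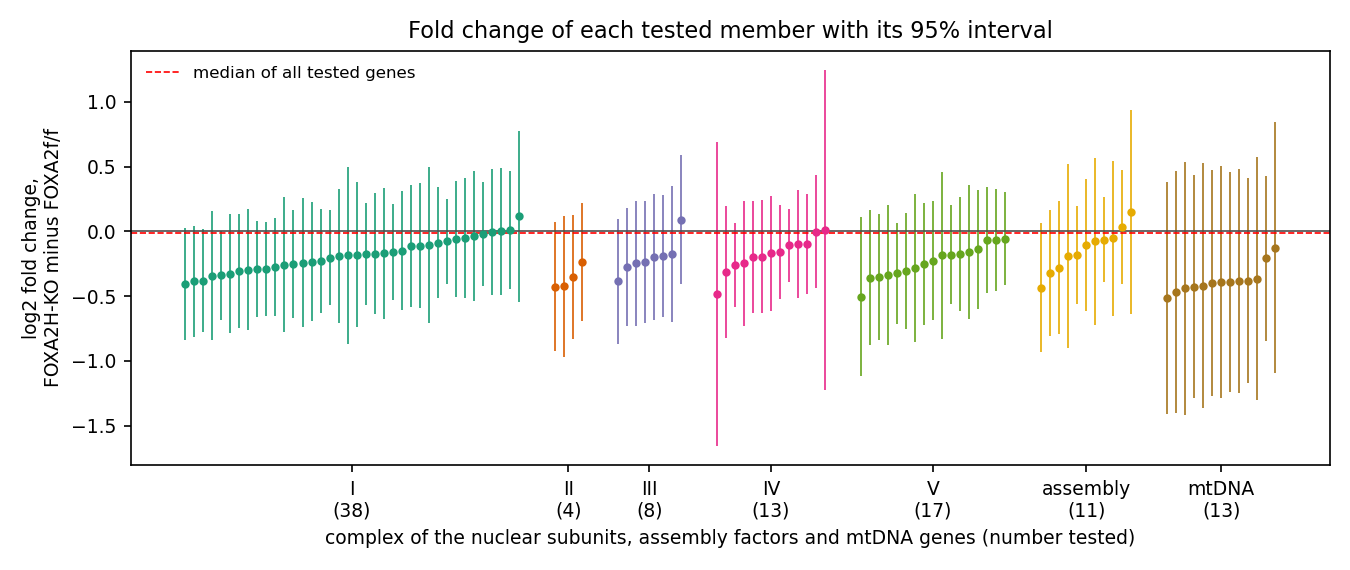
Log2 fold change of FOXA2H-KO against FOXA2f/f hepatocytes for the 104 tested members. Each point is 1 gene with its 95% interval from edgeR's quasi-likelihood fit, sorted within each class, and the dashed line is the median of all 14417 tested genes (−0.01). In the class with the lowest median, the 13 mtDNA genes, the intervals are also wide, with standard errors from 0.27 to 0.42.

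In the nuclear subunits the median log2 fold change was −0.20, or 87.3% of the FOXA2f/f level, with 75 of 80 tested genes below 0. The standard errors were between 0.12 and 0.53, with a median of 0.20. For 77 of the 80 genes the 95% interval lay inside 2-fold in either direction, as it did for 9697 of all 14417 tested genes. For the 13 mtDNA genes the median was −0.39, or 76.1% of the FOXA2f/f level, with all 13 below 0, but the interval lay inside 2-fold for 1 of the 13. For 11 of the 11 tested assembly factors the interval lay inside 2-fold as well, around a median of −0.11.

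The pattern from mouse to mouse was not the same for nuclear and mitochondrial genes. To compare libraries, the mean of each gene over the 6 libraries was subtracted from its log2 CPM. The median nuclear subunit then stood at 0.07, 0.39 and −0.13 in the FOXA2f/f libraries and at −0.35, 0.07 and −0.04 in the FOXA2H-KO libraries. FOXA2f/f replicate 2 held the highest value of 66 of the 80 nuclear subunits, and FOXA2H-KO replicate 1 the lowest value of 70. FOXA2f/f replicate 4 lay below FOXA2H-KO replicates 2 and 4, so that the groups overlapped.

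The median mtDNA gene stood at 0.78, 0.18 and −0.45 in the FOXA2f/f libraries and at −0.54, 0.01 and 0.12 in the FOXA2H-KO libraries. Here FOXA2f/f replicate 1, not replicate 2, held the highest value of all 13 genes. The lowest values were shared between FOXA2H-KO replicate 1 (8 genes) and FOXA2f/f replicate 4 (5 genes). Within the FOXA2f/f group the mtDNA genes ranged over 1.23 on the log2 scale, against a difference of 0.31 between the means of the groups. For the nuclear subunits the range within FOXA2f/f was 0.52 and the difference between the group means 0.21, so that the spread between mice was larger than the difference in both genomes.

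**Figure D2:**
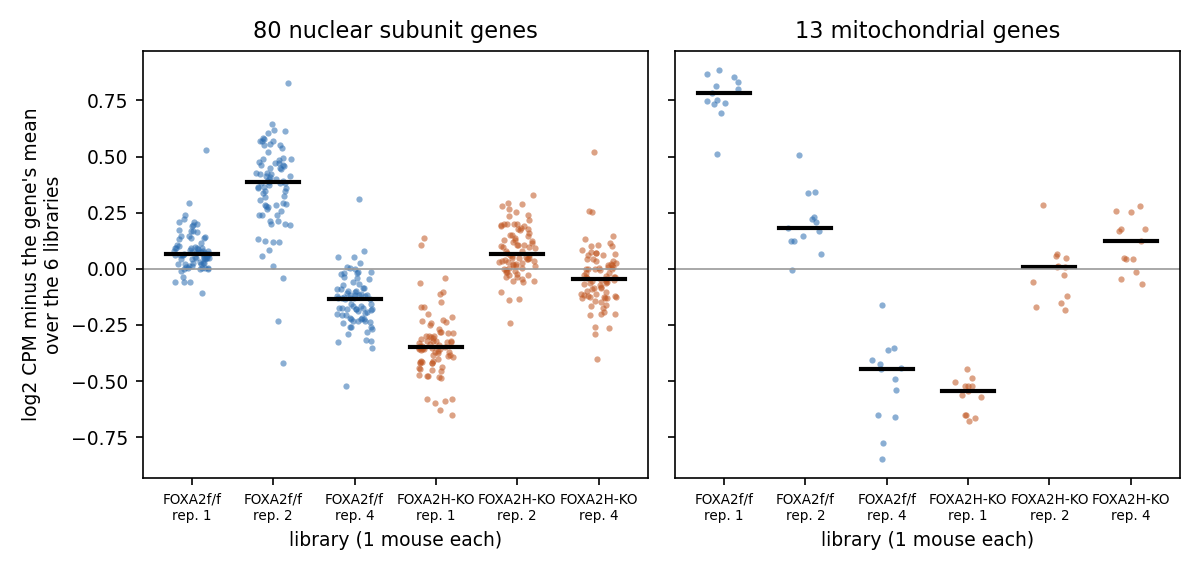
Log2 CPM of each tested gene minus its mean over the 6 libraries, for 80 nuclear subunit genes and 13 mtDNA genes. Each point is 1 gene, each column 1 mouse, and the black bars are medians. The nuclear genes are highest in FOXA2f/f replicate 2 (median 0.39) and the mtDNA genes in FOXA2f/f replicate 1 (median 0.78).

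Single libraries moved these medians. Without FOXA2f/f replicate 2 the nuclear median moved from −0.20 to −0.06, with 56 of 80 genes below 0, while the mtDNA median was −0.43. Without FOXA2f/f replicate 1 the nuclear median was still −0.20, whereas the mtDNA median moved from −0.39 to −0.04, with 9 of 13 genes below 0. Leaving out FOXA2H-KO replicate 1 brought the nuclear median to −0.09 and the mtDNA median to −0.24. Leaving out FOXA2f/f replicate 4 moved them the other way, to −0.33 and −0.67. In that fit 18 of 104 members had an unadjusted p under 0.05, and so had 16.7% of all genes. No fit without 1 library gave a member an adjusted p under 0.05.

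**Figure D3:**
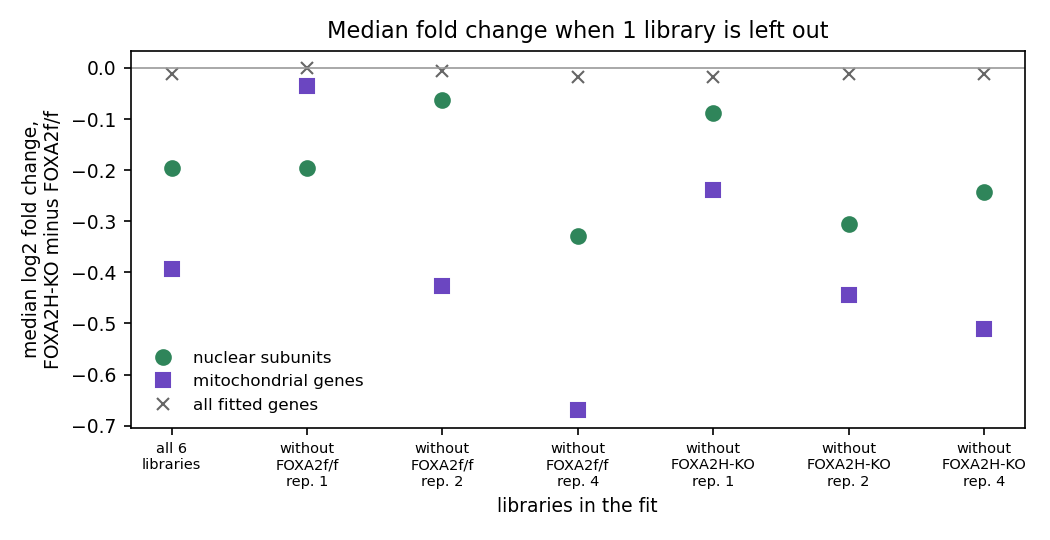
Median log2 fold change of the nuclear subunits, the 13 mtDNA genes and all fitted genes with all 6 libraries and with each library left out. The mtDNA median lies at −0.04 without FOXA2f/f replicate 1, and the nuclear median at −0.06 without FOXA2f/f replicate 2.

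Markers of macrophages and stellate cells moved opposite to the nuclear subunits in the libraries where the subunits were highest and lowest. FOXA2f/f replicate 2, where the nuclear subunits were highest, had the lowest summed level of the 12 macrophage markers (526 CPM, against 1029 to 2356 CPM in the other 5 libraries) and of the 12 stellate cell markers (1109 CPM, against 1325 to 2811 CPM), and the highest of the 10 hepatocyte markers (164501 CPM). FOXA2f/f replicate 4 and FOXA2H-KO replicate 1, where the subunits were lowest, had the highest macrophage (2356 and 1889 CPM) and stellate sums (2811 and 2670 CPM) and the lowest hepatocyte sums (117795 and 115522 CPM). All 12 markers of each of these lists were counted in every library. Between the groups, the ranges of the macrophage sums (526 to 2356 CPM in FOXA2f/f, 1195 to 1889 CPM in FOXA2H-KO) and of the stellate sums (1109 to 2811 and 1637 to 2670 CPM) overlapped, and 10 of 12 and 11 of 12 of the markers had a log2 fold change above 0. Their part in the lower subunit values was not tested. In bulk RNA, fewer hepatocytes and less RNA of a gene per hepatocyte cannot be told apart.

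The endothelial markers (10 genes) were also lowest in FOXA2f/f replicate 2 (257 CPM) and highest in FOXA2f/f replicate 4 (889 CPM), with 511 to 562 CPM in FOXA2H-KO, and cholangiocyte markers (7 genes) summed to 188 to 382 CPM in FOXA2f/f and 263 to 719 CPM in FOXA2H-KO. Lymphocyte (10 genes), neutrophil (6) and erythroid markers (6) stayed at or under 86.0 CPM in every library. The neutrophil sum was 80.9, 7.62 and 56.0 CPM in FOXA2f/f and 22.4, 26.5 and 16.7 CPM in FOXA2H-KO, and its lowest value was again in FOXA2f/f replicate 2. Of the 5 neutrophil markers tested, 4 were below 0 with an unadjusted p under 0.05, with a median log2 fold change of −2.07. The erythroid sum was lower in every FOXA2H-KO library (29.4 to 38.6 CPM) than in every FOXA2f/f library (46.5 to 86.0 CPM). This came from Alas2, an enzyme of heme synthesis in red cell precursors, with 35.7, 81.9 and 43.1 CPM in FOXA2f/f and 26.1, 19.4 and 25.6 CPM in FOXA2H-KO, whereas the groups overlapped for Hba-a1, Hba-a2, Hbb-bs and Hbb-bt and the median log2 fold change of the 5 tested erythroid markers was 0.00. The part of these cells in the subunit values was not tested either. The smallest p-values of the lists of hepatocyte, endothelial, macrophage, stellate, cholangiocyte, lymphocyte, neutrophil and erythroid markers belonged, in that order, to Cyp2e1 (0.72 ± 0.48), Lyve1 (0.61 ± 0.46), Itgam (0.81 ± 0.52), Reln (−0.52 ± 0.23), Spp1 (1.02 ± 0.42), Ms4a1 (0.99 ± 0.49), Elane (−3.55 ± 1.05) and Alas2 (−1.18 ± 0.31), given as log2 fold changes with SE, with adjusted p-values of 0.65 or more in edgeR's quasi-likelihood test. These genes do not stand for their lists: 7 of 10 hepatocyte markers (median −0.09) and 6 of 10 endothelial markers (median −0.07) were below 0, and 11 of 12 stellate markers above 0.

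Complex I, NADH dehydrogenase, had a median log2 fold change of −0.18 over the 38 nuclear genes named as its subunits, of which 35 were below 0. Genes were assigned to complexes by symbol, so that Ndufa4, known as a subunit of complex IV, and Ndufa4l2 are counted here. Ndufs8 (chr19:3908863-3912774, GRCm38), an iron-sulfur subunit of the peripheral arm, had 38.8, 48.2 and 38.2 CPM in the FOXA2f/f libraries and 29.8, 36.8 and 32.3 CPM in the FOXA2H-KO libraries. Every FOXA2H-KO value was below every FOXA2f/f value, although the highest of the former (36.8 CPM) and the lowest of the latter (38.2 CPM) were close. The log2 fold change was −0.34 ± 0.15 (SE) with an adjusted p of 0.941 in edgeR's quasi-likelihood test, and the exact two-sided permutation p was 0.1, the smallest that 3 against 3 libraries can give. Ndufa13, also known as Grim19, had 44.7, 48.0 and 37.7 CPM and 27.1, 39.3 and 33.8 CPM in the respective groups and a log2 fold change of −0.38 ± 0.17, with overlapping groups. Part of the exons of Ndufa13 lies in the neighbouring gene Tssk6, which held at most 6 counts in a library.

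Of the 104 tested members, 4 had all 3 FOXA2H-KO values below all 3 FOXA2f/f values (Ndufs8, Ndufa8, Ndufaf6 and Atp5d) and 0 had them above, whereas 5.96% of all tested genes lay apart in the first direction and 4.54% in the second. The members' share in the first direction was thus near that of all genes. Highest per length among the nuclear complex I genes was Ndufb9 (mean 101 FPKM over 6 libraries), and lowest Ndufb2 (0.213 FPKM). Ndufb2 is an accessory subunit that had only 35, 23 and 49 counts in the FOXA2f/f libraries and 44, 41 and 31 counts in the FOXA2H-KO libraries. Its FPKM was made with a length of 7116 bases, and the part of this length in the low FPKM was not tested.

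The assembly factors of complexes I and II had a median log2 fold change of −0.11, with 9 of 11 tested genes below 0. Ndufaf6 (chr4:11051045-11076205), needed for an early step of complex I assembly, had 8.88, 12.1 and 8.13 CPM in FOXA2f/f and 6.14, 7.73 and 7.62 CPM in FOXA2H-KO hepatocytes. Its groups lay apart, with a log2 fold change of −0.43 ± 0.21 and an adjusted p of 0.941. Ndufaf7, a factor of complex I assembly, followed with 14.8, 17.3 and 11.1 CPM and 9.59, 12.9 and 12.1 CPM in the same order of groups and a log2 fold change of −0.32 ± 0.21. Assembly factors were far less abundant than subunits: their mean FPKM ran from 0.894 (Sdhaf3) to 6.65 (Sdhaf2), with a median of 4.61, against a median of 28.7 for the 80 tested nuclear subunits. Sdhaf1 was not tested, with 1 to 9 counts per library, and shares 69.6% of its exon bases with another annotated gene.

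Complex II, succinate dehydrogenase, also belongs to the citrate cycle. Its 4 subunits had the lowest median among the nuclear classes (−0.39), and all 4 were below 0. The membrane anchor Sdhd had 167, 232 and 136 CPM in FOXA2f/f and 114, 141 and 143 CPM in FOXA2H-KO libraries, and a log2 fold change of −0.43 ± 0.21 with a 95% interval of −0.93 to 0.07. The iron-sulfur subunit Sdhb had 121, 178 and 103 CPM and 85.0, 122 and 92.9 CPM, respectively (−0.42 ± 0.23). Both were highest in FOXA2f/f replicate 2, and FOXA2f/f replicate 4 lay among the FOXA2H-KO values. Sdhc, the second membrane anchor, had 127, 146 and 107 CPM in FOXA2f/f and 72.8, 115 and 109 CPM in FOXA2H-KO (−0.35 ± 0.21), and the flavoprotein Sdha 368, 533 and 361 CPM and 327, 378 and 366 CPM (−0.24 ± 0.20). The adjusted p-values of the 4 genes lay between 0.944 and 0.983. Without FOXA2f/f replicate 2 the median of complex II moved to −0.18, and without FOXA2f/f replicate 4 to −0.52.

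Complex III, the cytochrome bc1 complex, had a median of −0.22 over 8 nuclear subunits, 7 of them below 0. Uqcrc1, a core subunit facing the matrix, had 176, 266 and 165 CPM in FOXA2f/f and 139.5, 168 and 158 CPM in FOXA2H-KO hepatocytes, with a log2 fold change of −0.39 ± 0.21 and an adjusted p of 0.952. Uqcrfs1, the Rieske iron-sulfur protein, had 147, 195 and 123 CPM and 111, 138 and 134 CPM (−0.28 ± 0.20), and it was also the most abundant nuclear subunit of the complex per length (103 FPKM). Least abundant was Uqcr11 (21.4 FPKM). In both named genes FOXA2f/f replicate 2 stood above the other 5 libraries, and the remaining values of the groups overlapped.

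Complex IV, cytochrome c oxidase, had a median of −0.17 over 13 tested nuclear genes, 12 of them below 0. Cox6b1, a subunit on the intermembrane space side, had 85.4, 96.5 and 72.1 CPM in FOXA2f/f and 69.6, 70.3 and 72.4 CPM in FOXA2H-KO libraries, a log2 fold change of −0.26 ± 0.14. The values of the FOXA2H-KO mice were close together, and the highest of them exceeded FOXA2f/f replicate 4 (72.1 CPM). Cox7a2 had 55.9, 78.1 and 47.6 CPM and 39.1, 57.4 and 49.4 CPM, respectively (−0.32 ± 0.22). Cox8a was the most abundant nuclear member per length, with a mean of 210.4 FPKM and a log2 fold change of −0.17 ± 0.19.

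Several complex IV subunits exist as isoforms from separate genes, with some forms typical of muscle, testis or hypoxic cells. In every library the common form held nearly all of the family's FPKM. Cox4i1 made up between 99.3% and 99.9% of the summed FPKM of Cox4i1 and Cox4i2, the hypoxia-related form, which had 1 to 7 counts per library. Cox6a1 held at least 99.5% against the muscle form Cox6a2, and Cox8a at least 99.9% against Cox8b. Cox7a2 held between 97.9% and 98.7% against the muscle form Cox7a1, which had a mean of 1.21 FPKM. Cox7b2 and Cox8c were at 0 in all 6 libraries. None of 8 skeletal muscle markers passed the filter. Cox6b2, a testis form, had a mean of 0.148 FPKM. Ndufa4, named for complex I but known as a subunit of complex IV, held between 97.0% and 98.0% of the FPKM it shares with the hypoxia-inducible Ndufa4l2. No isoform moved by more than 1 percentage point between the group means in these pairs. The log2 fold changes of the common forms were −0.20 ± 0.19 for Cox4i1, −0.16 ± 0.16 for Cox6a1 and −0.11 ± 0.21 for Ndufa4. Cox7a2l, a factor that joins complexes III and IV into supercomplexes, had 72.5, 65.0 and 63.5 CPM in FOXA2f/f and 57.2, 66.6 and 62.5 CPM in FOXA2H-KO libraries, the narrowest standard error among the members, with a log2 fold change of −0.11 ± 0.12. With scaling by total count alone, the values of Ndufa4 and Cox7a2l turned to 0.02 and 0.01.

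Complex V, ATP synthase, had a median of −0.23 over 17 nuclear genes, all of them below 0. Atp5d (chr10:80138632-80145818), the delta subunit of the central stalk, had 114, 146 and 110.2 CPM in FOXA2f/f and 83.4, 106 and 107 CPM in FOXA2H-KO hepatocytes. The groups lay apart, by 110.2 against 106.9 CPM at the nearest, with a log2 fold change of −0.33 ± 0.17 and an adjusted p of 0.949. Atp5s, a protein also known as factor B, had 5.54, 4.99 and 3.30 CPM and 3.64, 3.21 and 2.87 CPM (−0.50 ± 0.27), with 1 FOXA2H-KO value (3.64 CPM) above the lowest FOXA2f/f value. Atp5s was the least abundant gene of this group (2.61 FPKM) and Atp5a1, subunit alpha of the catalytic F1 part, the most abundant (149 FPKM). The proton-conducting c subunit comes from 3 genes that encode the same mature protein. Atp5g3 contributed 57.6% to 63.0%, Atp5g2 28.3% to 34.9% and Atp5g1 7.55% to 8.73% of their summed FPKM over the 6 libraries. Mean shares of Atp5g3 were 60.0% ± 2.77 (SD, n = 3) in FOXA2f/f and 59.6% ± 1.74 (SD, n = 3) in FOXA2H-KO, a difference smaller than the spread between mice. Their log2 fold changes were −0.31 ± 0.19, −0.18 ± 0.17 and −0.25 ± 0.20 for Atp5g1, Atp5g2 and Atp5g3.

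**Figure D4:**
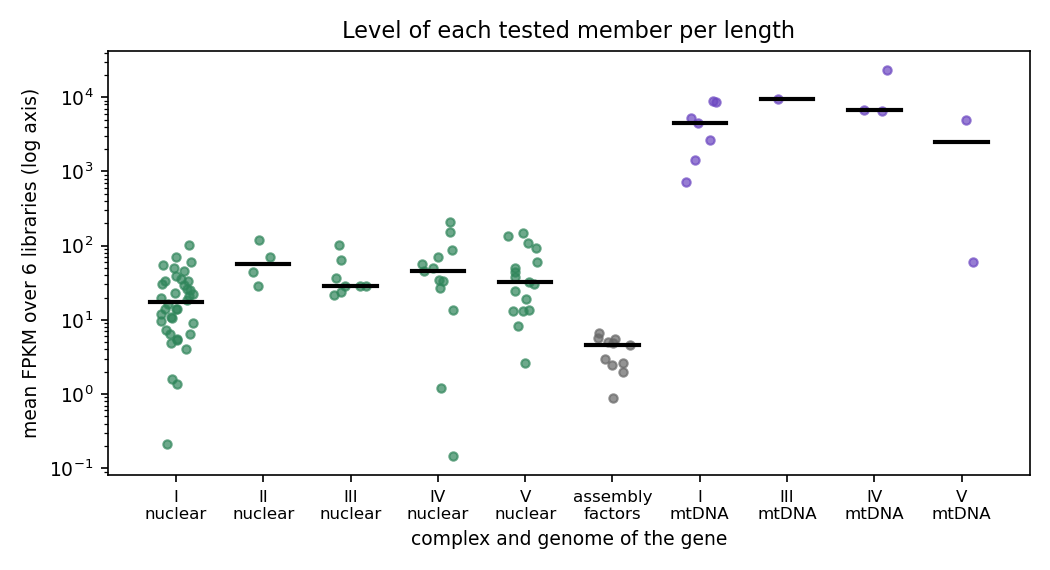
Mean FPKM over the 6 libraries (log axis) of each tested member by complex and genome, with medians as bars. The mtDNA genes lie between 60.5 FPKM (mt-Atp8) and 23302 FPKM (mt-Co1), and the nuclear subunits between 0.148 FPKM (Cox6b2) and 210 FPKM (Cox8a).

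The 13 mtDNA genes are transcribed as long molecules from both strands of the circular mitochondrial genome and then cut apart. They made up 14.4%, 9.27% and 7.61% of all counts in the FOXA2f/f libraries and 7.14%, 9.09% and 9.49% in the FOXA2H-KO libraries. By contrast the 97 nuclear members together took 0.667%, 0.842% and 0.705% in FOXA2f/f and 0.631%, 0.734% and 0.665% in FOXA2H-KO. The mean mtDNA share was 10.4% ± 3.53 (SD, n = 3) in FOXA2f/f and 8.57% ± 1.26 (SD, n = 3) in FOXA2H-KO, a difference of −1.84 percentage points that lay within the spread between mice. Without FOXA2f/f replicate 1 the difference was 0.135 percentage points, with FOXA2H-KO the higher.

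Among the complex I genes of mtDNA, mt-Nd1 had 14402, 10466 and 5274 CPM in FOXA2f/f and 5679, 8340 and 8517 CPM in FOXA2H-KO libraries, and mt-Nd5 14148, 9037 and 5738 CPM and 4888, 7190 and 8830 CPM. In both genes FOXA2f/f replicate 1 was highest and FOXA2f/f replicate 4 lay below FOXA2H-KO replicates 2 and 4. The log2 fold changes were −0.42 ± 0.41 for mt-Nd1, −0.40 ± 0.38 for mt-Nd2, −0.39 ± 0.36 for mt-Nd4 and −0.47 ± 0.40 for mt-Nd5. The value of mt-Nd6, the only gene of the 13 on the minus strand, was −0.36 ± 0.41. The library kit is not stated to mark strand, so that its counts may include RNA of the plus strand. Smallest in size was the value of mt-Nd3, −0.12 ± 0.42, which turned to 0.02 with scaling by total count and to 0.38 without FOXA2f/f replicate 1. Without that library mt-Nd4l (−0.21 ± 0.27 with all libraries) and mt-Nd6 also turned, to 0.03 and 0.08.

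Of complexes III and IV, mt-Cytb, cytochrome b, had 18021, 11582 and 7815 CPM in FOXA2f/f and 7294, 9437 and 11762 CPM in FOXA2H-KO (−0.39 ± 0.39). The catalytic subunit mt-Co1 (chrM:5328-6872, GRCm38) was the most abundant member, with 59243, 39836 and 27506 CPM and 24509, 35370 and 33539 CPM, respectively, and a log2 fold change of −0.44 ± 0.42. It took between 35.1% and 40.2% of the counts assigned to the 13 genes in each library. Counts on nuclear copies (below), whose share differs between the genes, are not included. mt-Co2 had a log2 fold change of −0.38 ± 0.34 and mt-Co3 of −0.52 ± 0.39, the lowest of the 13. Even for mt-Co3 the 95% interval of −1.41 to 0.38 covered 0, and the adjusted p was 0.983. Of complex V, mt-Atp6 had 5872, 3596 and 2348 CPM and 2233, 3436 and 3404 CPM (−0.38 ± 0.37), and mt-Atp8 only 19.8, 16.9 and 6.89 CPM and 8.45, 12.4 and 11.5 CPM (−0.43 ± 0.37). Both are translated from 1 shared messenger, and 21.1% of the exon bases of mt-Atp8 overlap neighbouring genes, so that fragments of the shared part cannot be assigned to either. Without FOXA2f/f replicate 1 mt-Atp6 turned to 0.04.

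Counts on 7 of the mtDNA genes were shared with near-identical copies in the nuclear genome. These copies are insertions of mtDNA, annotated as unprocessed pseudogenes, and 7 of 8 lie side by side on chromosome 1 within chr1:24611535-24616197. In the aligned bases Gm28661 was identical to mt-Co2 over 681 bases, Gm28437 to mt-Co3 over 783, Gm10925 to mt-Atp6 over 678, Gm10222 to mt-Nd4l over 294 and Gm28439 to mt-Nd4 over 876. The copies of mt-Nd3 and mt-Co1 on chromosome 1 align over 345 of 348 and 492 of 1545 bases of the gene. Within the aligned bases they differ from the gene only near their start. The stretches that hold these differences are shown because they are all that separates gene and copy in those bases. Sequences are from GENCODE M21 (GRCm38), read 5′ to 3′ on the strand of the gene, and capitals mark bases that differ. The first pair covers positions 1 to 47 of mt-Nd3 (chrM:9459-9806, plus strand) and the start of Gm28438 (chr1:24612775-24613119, minus strand).
mt-Nd3: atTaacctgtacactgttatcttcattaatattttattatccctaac
Gm28438: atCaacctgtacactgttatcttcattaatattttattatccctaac
The second pair covers positions 1054 to 1100 of mt-Co1 and the start of Gm29216 (chr1:24615706-24616197, minus strand).
mt-Co1: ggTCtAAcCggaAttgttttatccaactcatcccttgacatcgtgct
Gm29216: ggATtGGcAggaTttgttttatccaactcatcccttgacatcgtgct
Counted from 1 at the first base of the gene, the single substitution between mt-Nd3 and Gm28438 is T3C (base of the gene first). The 6 substitutions of Gm29216 lie between T1056A and A1066T, and the rest of its 492 bases equal mt-Co1.

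**Figure D5:**
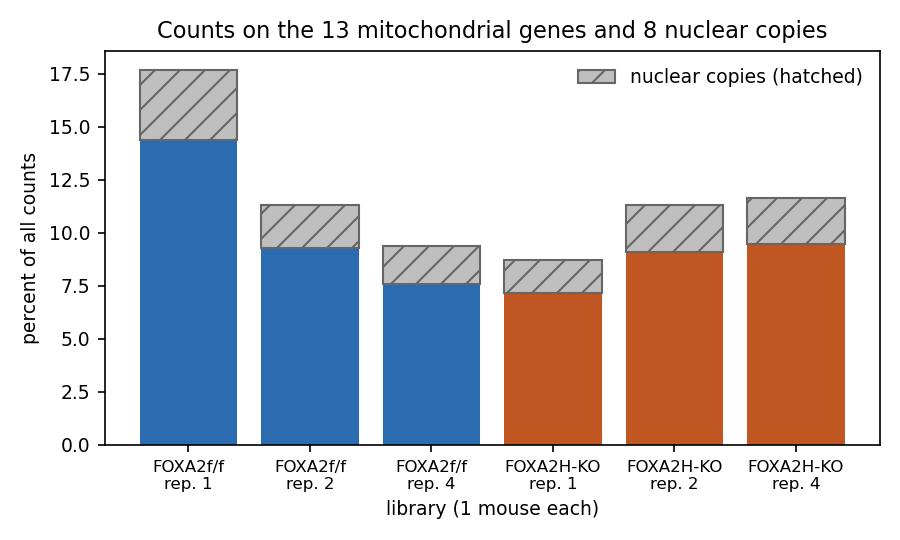
Percent of all counts on the 13 mtDNA genes (solid, blue for FOXA2f/f and orange for FOXA2H-KO) and on their 8 nuclear copies (hatched) in each library. FOXA2f/f replicate 1 has 14.4% on the genes and 3.33% on the copies, and the other 5 libraries lie between 7.14% and 9.49% on the genes.

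The copies held counts close to those of the genes themselves. Of the counts on mt-Co2 and Gm28661 together, between 49.5% and 50.5% were on the copy in each library, and for mt-Co3 and Gm28437 between 49.6% and 52.6%. For mt-Atp6 the copy Gm10925 held more than the gene, between 61.0% and 62.4%. For mt-Co1, whose copy Gm29216 covers only part of the gene, it was 7.21% to 8.34%. These shares hardly varied between mice, whereas the level of the genes themselves varied more than 2-fold. The counts on the 8 copies rose and fell with the genes: they made up 3.33%, 2.02% and 1.75% of all counts in FOXA2f/f and 1.58%, 2.21% and 2.15% in FOXA2H-KO. A fragment that fits both places cannot be told apart, so that the values of mt-Atp6, mt-Co1, mt-Co2, mt-Co3, mt-Nd3, mt-Nd4 and mt-Nd4l given above rest only on the fragments that were assigned to the gene. Added together, genes and copies took 17.7%, 11.3% and 9.36% of the counts in FOXA2f/f and 8.72%, 11.3% and 11.6% in FOXA2H-KO. The median log2 fold change was −0.41 for the 6 mtDNA genes without such a copy, close to the −0.39 of all 13.

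The promoters of the nuclear members were read for shared letters. RefSeq windows of 250 bases before the start (GRCm38.p6) were found for 78 of the 97 nuclear members (83 windows), and searched on both strands for 6 motifs that do not contain each other. The NRF1 motif GCGCATGCG is named for a factor known to drive respiratory genes. It was found in 8.43% of member windows (7 windows) against 1.45% of all 32851 windows. The ETS motif ACCGGAAG, bound by GABP, was in 4.82% (4 windows) against 1.72%, and the YY1 motif AAGATGGC in 1.20% (1 window) against 1.56%. The ERR motif TCAAGGTCA was in 1.20% against 0.387%, which rests on 1 window, and TATAAA in 8.43% (7 windows) against 12.4%. For the FOXA motif TGTTTAC it was 2.41% (2 windows) against 3.17%. These are matches of letters in a short window and not measured sites. The windows of 3 genes described above that hold a match are shown, with the match in capitals. They are Cox6a1 (NRF1, chr5:115348959-115349208, minus strand), Sdhd (ETS, chr9:50603850-50604099, minus strand) and Cox7a2 (FOXA, chr9:79759854-79760103, minus strand), each read 5′ to 3′ towards the gene.
Cox6a1: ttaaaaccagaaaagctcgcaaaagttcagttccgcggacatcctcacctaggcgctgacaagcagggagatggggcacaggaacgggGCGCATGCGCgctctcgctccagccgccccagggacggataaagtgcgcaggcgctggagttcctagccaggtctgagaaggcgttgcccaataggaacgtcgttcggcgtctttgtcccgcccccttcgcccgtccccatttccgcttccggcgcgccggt
Sdhd: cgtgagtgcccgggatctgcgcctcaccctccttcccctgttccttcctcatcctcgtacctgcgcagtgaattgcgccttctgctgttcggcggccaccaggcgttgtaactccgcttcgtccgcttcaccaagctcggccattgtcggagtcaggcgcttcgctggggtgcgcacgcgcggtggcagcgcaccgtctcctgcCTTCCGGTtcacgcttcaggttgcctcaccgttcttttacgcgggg
Cox7a2: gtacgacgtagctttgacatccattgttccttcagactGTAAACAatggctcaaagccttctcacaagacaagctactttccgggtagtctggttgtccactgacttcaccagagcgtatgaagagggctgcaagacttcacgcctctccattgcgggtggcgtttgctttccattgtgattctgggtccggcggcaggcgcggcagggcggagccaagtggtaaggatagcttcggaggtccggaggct
Cox6a1, Sdhd and Cox7a2, with log2 fold changes of −0.16, −0.43 and −0.32, were all highest in FOXA2f/f replicate 2. So were 66 of the 80 tested nuclear subunits, and the part of the motifs in these values was not tested.

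Regulators of the respiratory genes were measured as a further list. Of 13 tested, 10 had a log2 fold change below 0, with a median of −0.09. Pprc1, a coactivator of the PGC-1 family, had 19.8, 22.4 and 19.0 CPM in FOXA2f/f and 17.2, 15.8 and 15.2 CPM in FOXA2H-KO, a log2 fold change of −0.34 ± 0.14 and an adjusted p of 0.934. Ppara, a nuclear receptor of fatty acid oxidation, had the highest value of the list (0.36 ± 0.20, adjusted p 0.957). Of the others, Ppargc1a, encoding PGC-1α, had 0.11 ± 0.32, Nrf1 −0.09 ± 0.17, Gabpa −0.04 ± 0.14, Yy1 −0.11 ± 0.16 and Esrra −0.21 ± 0.15.

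Other genes needed by the chain were read as further lists, and none of them was called. Of the carriers and subunits outside the name rule, Cyc1, cytochrome c1 of complex III, had 128, 221 and 117 CPM in FOXA2f/f and 96.7, 119.5 and 104 CPM in FOXA2H-KO libraries (−0.54 ± 0.25, adjusted p 0.941). Cycs, cytochrome c, had a log2 fold change of −0.08 ± 0.29, Usmg5, a small complex V subunit, 0.05 ± 0.22 and Atpif1, an inhibitor of complex V, 0.32 ± 0.33. Of 11 further complex I assembly genes 10 were below 0, with a median of −0.22, and Nubpl, which delivers iron-sulfur clusters, had the smallest p (−0.58 ± 0.25, adjusted p 0.941). Complex III assembly had 3 of 6 below 0, with Bcs1l at −0.36 ± 0.19, and complex IV assembly 11 of 21, with the heme A enzyme Cox10 at −0.49 ± 0.23. The median of complex IV assembly genes was 0.00, unlike the −0.17 of the subunits, a difference that was not tested. All 4 complex V assembly genes were below 0, with Tmem242 at −0.25 ± 0.16.

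In ubiquinone synthesis and electron entry 15 of 17 genes were below 0 (median −0.22), with Coq8a at −0.54 ± 0.27. In the citrate cycle and pyruvate entry 16 of 19 were below 0 (median −0.21), with the isocitrate dehydrogenase subunit Idh3b at −0.35 ± 0.19. Mitochondrial import and membrane proteins had 15 of 16 below 0 (median −0.15), with Phb, prohibitin, at −0.40 ± 0.22. Of 77 tested mitochondrial ribosomal proteins 64 were below 0 (median −0.14), with Mrps27 at −0.46 ± 0.17, while Mrpl52 had a value above 0 (0.32 ± 0.12). Of 26 genes of mtDNA maintenance and expression 20 were below 0 (median −0.07), and Fastk had the smallest p (−0.36 ± 0.13, adjusted p 0.836). These lists were counted beside 52.2% of all genes below 0, in the same 6 libraries and with the same dependence on single mice.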

How the data were processed

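Total RNA of primary hepatocytes was made into poly-A selected, paired-end TruSeq libraries, 1 per mouse. The kit is not stated to mark strand. The submitters' processing notes name CASAVA 1.8, TopHat2 2.1.0, HTSeq, edgeR and the build mm10, without roles. For each library the authors deposited a raw count per gene and FPKM values, which follow from the count, gene length and library total (relative spread 8.94e-06 over 9339 genes). A deposited table that repeats these columns was not used.

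The members and lists were chosen with earlier results of these data known. Pseudogenes whose symbol ends in -ps with or without a number were left out (4 genes). edgeR 4.0.16 (run in R 4.3.3) was applied to the counts with TMM scaling and the filterByExpr filter (quasi-likelihood test without a replicate block, Benjamini-Hochberg adjustment over 14417 genes). The test was also run on simulated counts. These were drawn for each gene separately, so that they cannot show how the test behaves when genes rise and fall together. The SE is the log2 fold change divided by the square root of F. The files were joined in Python 3.11.15. Total counts of 20983455 to 28327765 set the depth. Nothing beyond the group and number labels says how mice were housed or processed, so that p-values measure the spread between these libraries.

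Named were Foxa2, all mtDNA and Sdh genes, the 2 smallest p-values of each nuclear class, isoform families, the highest and lowest FPKM of each class, and the smallest p of each further list. The regulators other than Pprc1, the carriers other than Cyc1, Ndufa8, Mrpl52 and the nuclear copies were named after their values were seen. Shared sequence was counted as 50-base words of GENCODE M21 transcripts. Alternatives were DESeq2 1.42.0, upper quartile scaling, scaling by total count or without mtDNA genes, edgeR's exact test, filters, limma 3.58.1 on log2(FPKM + 1) and log2(FPKM + 0.1), the replicate block and each library left out. The sums with nuclear copies were added after seeing the data.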

Additional observations from a re-analysis of the deposited data

How the results depend on the processing

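No alternative gave a member an adjusted p under 0.05, also with no fold threshold. The number of members with an unadjusted p under 0.05 was 0 with edgeR's quasi-likelihood test on all libraries, 1 each with upper quartile scaling, no filter and at least 10 counts in every library, and 0 to 18 without 1 library. Its highest value, 18, came without FOXA2f/f replicate 4, and 3 came without FOXA2H-KO replicate 2. With edgeR's quasi-likelihood test on all libraries 5.17% of all tested genes had such a value. Counts of 1 or 3 members are given here without the share of all genes in the same fit. They are not read as a result about the members. Leaving out 1 library gave median log2 fold changes of −0.33 to −0.06 for nuclear subunits, −0.67 to −0.04 for mtDNA genes, −0.31 to −0.04 for complex I, −0.52 to −0.18 for complex II, −0.36 to −0.06 for complex III, −0.29 to −0.04 for complex IV and −0.38 to −0.07 for complex V, and a difference of the mtDNA share of counts of −3.25 to 0.135 percentage points.

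The replicate number as a block gave 3 members with an unadjusted p under 0.05, again without the share of all genes in that fit. The same numbers do not mark a shared animal, and the labels do not say what else they mark. Deviations of same-numbered libraries correlated at −0.07, 0.03 and −0.23. With 3 libraries per group such values cannot show or exclude a shared day or batch.

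Of 904 values of 57 named genes under the alternatives, 17 had the opposite sign. The 57 leave out Atp5a1, Cox6b2, Ndufb2, Ndufb9, Sdhaf2, Sdhaf3 and Uqcr11, which were named for their FPKM alone. In 9 of the 904 values Foxa2 had an adjusted p of 0.05 or more. Its log2 fold changes there were −4.168 to −3.627 without 1 library, −3.739 with scaling by total count and −3.878 with the replicate block. With limma on log2(FPKM + 1) and log2(FPKM + 0.1) they were −1.954 and −3.377. In 3 cases the adjusted p fell under 0.05 at nearly the same fold change: Elane with DESeq2 (−3.560, adjusted p 0.0128) and edgeR's exact test (−3.545, adjusted p 0.0105), and Alas2 with the exact test (−1.175, adjusted p 0.0154). Scaling by total count turned mt-Nd3 to 0.023, Ndufa4 to 0.020 and Cox7a2l to 0.008, limma on log2(FPKM + 1) turned them to 0.10, 0.017 and 0.013, and limma on log2(FPKM + 0.1) to 0.101, 0.017 and 0.013. Without 1 library mt-Nd3 ranged from −0.449 to 0.377, mt-Nd4l from −0.395 to 0.032, mt-Nd6 from −0.673 to 0.078, mt-Atp6 from −0.647 to 0.042 and Ndufa4 from −0.245 to 0.072. Scaling by total count moved the median of all genes from −0.01 to 0.10, and the nuclear median relative to it from −0.18 to −0.17. For 12 of 13 mtDNA genes the 95% interval reached past 2-fold lower.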
